A study of Mus musculus with 5 samples.

Results

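Neutrophils of the mouse mammary gland were drawn from 5 libraries of single-cell RNA profiles by a marker gate, which took 138 of the 28588 cells kept, or 0.483%. A kept cell had at least 500 genes with a count and at most 15% of its counts from mitochondrial genes. Each count is a unique molecular identifier (UMI), a tag that marks 1 captured transcript. A neutrophil had at least 50 UMIs of S100a8 and S100a9 together per 10000 UMIs and at least 1 UMI in 2 or more of the 5 genes Csf3r, Cxcr2, Retnlg, Ly6g and Mmp9. It also had 0 UMIs of Epcam, an epithelial adhesion molecule, fewer than 2 UMIs of the T cell genes Cd3d, Cd3e and Trac, and fewer than 50 UMIs per 10000 of the fibroblast genes Col1a1, Col1a2, Col3a1 and Dcn. The gate read measured values, so the levels of these genes are given as a description.

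The study profiled the mammary glands of 5 mice, 1 library per mouse, with the 10x Genomics 3′ kit. The 3 knockout-labelled libraries (KO1, KO2 and KO3) carry the label of a Frmd3 deletion, and the 2 wild-type libraries (WT1 and WT2) carry none. Lists of 5 values below give KO1 first, then KO2, KO3, WT1 and finally WT2, and lists of 4 leave out KO3. FRMD3 holds a FERM domain, a fold that ties membrane proteins to the cytoskeleton, and the series title links the gene to mammary epithelial fate. The sources used here do not give the part of Frmd3 that was deleted, nor the strain, age, sex and reproductive stage of the mice.

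Neutrophils are short-lived granulocytes that are made in the bone marrow, circulate in blood and enter tissue along chemokine gradients read by receptors such as CXCR2. Their granules are filled in a fixed order: the primary granule proteins in early precursors, the secondary ones later, and the gelatinase-rich tertiary ones last. Mature cells make little new granule protein, hold few mitochondria, and keep large stores of the calcium-binding pair S100A8 and S100A9, which binds metal ions and limits microbial growth.

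The libraries held 3359 to 11040 barcodes, 24197344 to 87577099 UMIs and 2279 to 10366 kept cells each, with KO3 lowest in all 3. Frmd3 itself stood at 2.12, 3.06, 1.88, 1.45 and 2.33 CPM (UMIs of a gene per 1000000 UMIs) over all kept cells. The knockout-labelled libraries were thus not below the wild-type ones, and a count of 3′ ends does not test a deletion whose place is not given; every direction below is between labels. No neutrophil held a Frmd3 UMI in any of the 5 libraries. KO3 came from a later Cell Ranger release, 6.1.2 against 6.0.2 for the others, and gave 1 neutrophil, so its values rest on that cell.

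The gate took 21, 32, 1, 19 and 65 cells. Their median depth was 2589, 2593, 1772, 2421 and 2841 UMIs, and their median number of genes 975, 924, 609, 984 and 1039. Neutrophils were shallow beside the other myeloid cells of the same glands. Over all libraries they had a median of 2666 UMIs, against 8511 in 242 monocyte-gate cells and 4851 in 1538 macrophage-gate cells. Their median mitochondrial share was 0.216%, against 2.04% and 2.75%. A monocyte-gate cell had a UMI of Csf1r, at least 2 of Ly6c2, Ccr2, Plac8 and Ms4a4c, and fewer than 2 UMIs of C1qa, C1qb and C1qc. A macrophage-gate cell had at least 5 UMIs of those 3 complement genes and a UMI of Adgre1 or Csf1r. Both classes passed the same epithelial, T cell and fibroblast limits. None of the 138 barcodes occurred among the neutrophils of another library.

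The S100 genes that open the gate lie in 1 cluster on mouse chromosome 3. S100a8 (ENSMUSG00000056054) spans 90668978 to 90670035 on the plus strand of mm10, and S100a9 (ENSMUSG00000056071) spans 90692632 to 90695721 on the minus strand, with 22596 bases between them. The bases just before each start are shown because the levels of the pair were correlated across the gated cells. They come from RefSeq (GRCm38.p6), at chr3:90668821-90668977 on the plus strand and chr3:90695722-90695971 on the minus strand, 157 and 250 bases long and each read 5′ to 3′ along its gene. Capitals mark matches, on either strand, to GAGGAA, a core of sites of the myeloid factor PU.1, or to TTGCNNAA, a core of C/EBP sites.
S100a8: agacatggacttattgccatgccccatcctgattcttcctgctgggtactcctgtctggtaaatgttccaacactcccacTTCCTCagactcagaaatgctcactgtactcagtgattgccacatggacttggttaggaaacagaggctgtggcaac
S100a9: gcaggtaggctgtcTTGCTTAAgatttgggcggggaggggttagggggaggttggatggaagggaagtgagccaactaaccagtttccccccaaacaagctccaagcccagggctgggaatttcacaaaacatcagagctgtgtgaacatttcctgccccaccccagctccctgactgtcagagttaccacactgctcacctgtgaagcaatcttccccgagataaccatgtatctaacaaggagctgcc
The S100a8 window held 1 PU.1 match and 0 C/EBP matches, and the S100a9 window 0 and 1. Among 32851 mouse promoters, 15.3% of 157-base windows held the PU.1 letters and 6.47% the C/EBP letters. Of 250-base windows, 23.3% and 9.56% did. A match is a run of letters, not evidence of binding.

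S100a8 stood at 37179, 15253, 23138, 13331 and 16330 CPM in the summed neutrophils, and S100a9 at 77775, 40746, 44018, 35487 and 42519 CPM. KO1 was highest for both, and the KO and WT ranges overlapped. Together the pair made up 11.5%, 5.60%, 4.88% and 5.88% of all neutrophil UMIs in KO1, KO2, WT1 and WT2. S100a9 UMIs outnumbered those of S100a8 by 2.09, 2.67, 2.66 and 2.60 to 1. Across the 138 cells the levels of the 2 genes had a Spearman correlation of 0.85, and of 0.79 to 0.89 within the 4 libraries with more than 1 cell; the points share libraries and depth, and the gate used the sum of the 2 genes.

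**Figure D1:**
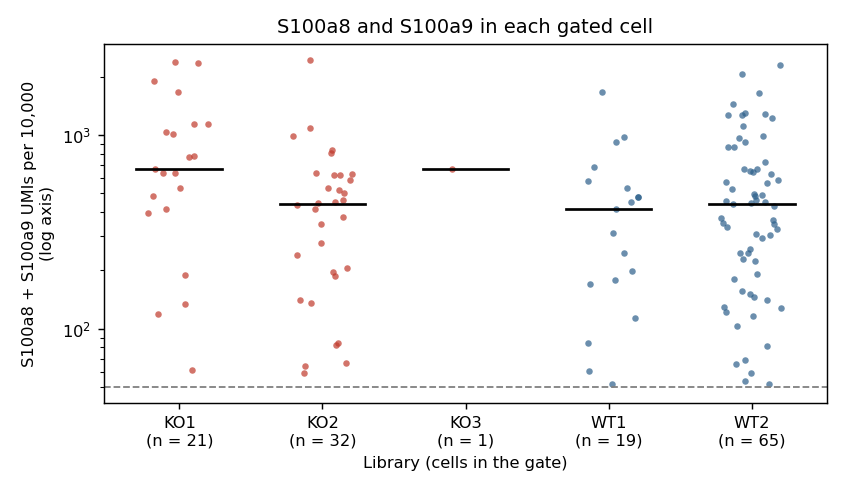
S100a8 plus S100a9 UMIs per 10000 UMIs (log axis) in each gated cell by library; red is KO, blue is WT, black bars are medians and the dashed line is the gate at 50. Medians were 672 in KO1, 440.4 in KO2, 416 in WT1 and 442 in WT2, and KO3 is 1 cell at 672.

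The gate's lower edge was thinly filled. Between 50 and 100 UMIs per 10000 lay 15 members, with a median of 64.2, and between 20 and 50 lay 10 cells that met every other condition, with a median of 29.8. Another 72 cells met every other condition with fewer than 20, by library 19, 5, 15, 26 and 7. What these 72 cells were was not tested. The 5 further genes were detected to different degrees. Csf3r, the receptor for the granulocyte growth factor G-CSF, had a UMI in 137 of 138 cells at 2273, 1942, 2257, 2445 and 2384 CPM. Cxcr2, the receptor for neutrophil-attracting CXC chemokines, had one in 113 cells at 2128, 734, 2257, 2275 and 1059 CPM. Retnlg, a resistin-like secreted protein of mouse granulocytes, had one in 116 cells at 15526, 6593, 4515, 4593 and 6758 CPM. Mmp9, the tertiary-granule gelatinase, had one in 109 cells at 887, 531, 1693, 765 and 1112 CPM. Ly6g, the antigen most used to sort mouse neutrophils, had one in 14 cells, at 161, 79.0, 0, 0 and 42.6 CPM; a count of 0 in WT1 allows up to 63.8 CPM. Csf3r was the steadiest of these across libraries and Retnlg ranged more widely, highest in KO1. In the fibroblast gate (9417 cells without Ptprc or Epcam UMIs and with at least 50 UMIs per 10000 of the fibroblast genes, median 11664 UMIs), which should lack these genes, 1.98% of cells had a UMI of S100a8, 3.04% of S100a9 and 0.467% of Csf3r.

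The genes that set the gated cells furthest apart from all other kept cells included many known from granulocytes. By the ratio of summed CPM, with at least 100 CPM in each of the 4 larger libraries, the first 15 held 5 gate genes (S100a8, S100a9, Csf3r, Cxcr2 and Retnlg) and 10 that the gate did not read. These 10 were Cstdc4, Stfa2l1, Mirt2, Il1f9, Wfdc21, Mmp8, Asprv1, Rdh12, G0s2 and Trem1. Since the cells were chosen by correlated genes, the ranking is a description. Cstdc4 and Stfa2l1 belong to the stefin inhibitors of cysteine proteases, at 629, 915, 0, 638 and 532 CPM and at 645, 768, 0, 276 and 713 CPM. Stefin genes are near-identical copies, and the sources used here do not say how the counting divided their reads, so the split between the pair is uncertain. Trem1, a receptor that amplifies inflammatory signalling, stood at 1112, 677, 0, 1106 and 867 CPM, with a UMI in 112 of 138 cells. G0s2, an inhibitor of triglyceride lipase, stood at 1435, 3748, 5643, 850.5 and 2474 CPM, more in the libraries numbered 2 than in those numbered 1.

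Against the 2 other myeloid classes, the genes named in the next sentences differed in the same direction in 4 of 4 libraries. For S100a4 this covers monocyte-gate cells only. Over all libraries, G0s2 was at 2416 CPM in neutrophils, 17.2 in monocyte-gate and 0.559 in macrophage-gate cells. Asprv1, a skin-type aspartic protease, was at 981, 0.492 and 0.559 CPM. Il1f9, the gene of the cytokine IL-36γ, was at 805 CPM in neutrophils and rested on 4 UMIs in monocyte-gate and 2 in macrophage-gate cells. Stfa2l1 and Cstdc4 had 255 and 250 UMIs in neutrophils and 0 in either class, at least 446-fold and 438-fold higher than in monocyte-gate cells when the 0 is set to 3 UMIs over the class. In the other direction, S100a4, a calcium-binding protein of motile cells, was at 12.9 CPM in neutrophils and 1825 CPM in monocyte-gate cells. The class II genes H2-Ab1, which presents antigen to helper T cells, and Cd74, its chaperone, were at 20.7 and 85.2 CPM in neutrophils. They stood at 2394 and 6066 CPM in monocyte-gate cells and at 4835 and 12907 CPM in macrophage-gate cells. Genes of the monocyte and macrophage gates (C1qa, C1qb and C1qc among them) were set by those gates.

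Several lists of other cell types had defining markers at 0. All 5 B lineage genes and all 5 erythroid genes had 0 UMIs. Of the 8 dendritic cell genes, Flt3, Cd209a, Xcr1 and Clec9a were at 0, and the summed list was at 135 to 276 CPM in the 4 larger libraries. Of the 5 eosinophil genes, Epx, Prg2 and Il5ra were at 0, Siglecf had 3 UMIs and Ccr3 had 4. The list summed to 0 to 26.6 CPM in the 4 larger libraries, above the 0.622 to 1.65 CPM of other kept cells in all but KO1. In 0 cells did it reach 2 UMIs. All 7 macrophage genes had a UMI, at 181 to 580.4 CPM in sum in the 4 larger libraries, against 645 to 1970 CPM in other kept cells of the 5 libraries; C1qa had 4 UMIs, C1qb 3 and C1qc 1. Of the 7 monocyte genes 6 had a UMI, at 215 to 629 CPM in sum against 2078 to 3211 CPM. All 6 fibroblast genes had a UMI, at 693, 440.3, 0, 553 and 654 CPM in sum, against 4875 to 9356 CPM in other kept cells. Most of it was Gsn, an actin-severing protein, found in 97 of 138 cells at 465 CPM, against 193 CPM in monocyte-gate and 187 CPM in macrophage-gate cells, and 68 cells had 2 or more UMIs of the list. The 6 luminal epithelial genes summed to 193, 1908, 0, 829 and 548 CPM, and to 4523 to 12981 CPM in other kept cells. Krt8 of this list was found in 69 of 138 cells (50.0%) at 413 CPM, against 96.8 CPM in monocyte-gate and 90.4 CPM in macrophage-gate cells. Among the deeper fibroblast-gate cells 46.6% had a UMI of Krt8, at 79.5 CPM. In all, 57 members had 2 or more UMIs of the luminal list. In KO2, 1 member held 99 luminal UMIs and 1 held 29 UMIs of the T and NK list. With the 12 members (0, 4, 0, 2 and 6) that had 5 or more UMIs of either list left out, 126 remained.

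Neutrophils made up 0.203% of the kept cells in KO1 (95% Wilson interval 0.133 to 0.310%), 0.688% in KO2 (0.488 to 0.970%) and 0.0439% in KO3 (0.00775 to 0.248%). They made up 0.375% in WT1 (0.240 to 0.586%) and 1.04% in WT2 (0.819 to 1.33%). The 2 genotypes overlapped, and the intervals, which cover counting error only, separated libraries of the same label. The KO mean was 0.312 ± 0.336% (SD, n = 3) and the WT mean 0.709 ± 0.472% (SD, n = 2). The difference of -0.398 percentage points did not pass a two-sided exact permutation test over libraries (p = 0.4, adjusted over 2 shares 0.8), in which 3 against 2 libraries allow no p below 0.1. The later gate limits removed cells unevenly between libraries. Cells that met the S100 and gate gene conditions numbered 23, 36, 1, 23 and 86. Of these, 22, 33, 1, 19 and 70 had 0 Epcam UMIs, and 21, 32, 1, 19 and 65 passed all limits. What the limits did to the difference was not tested.

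As a share of leukocytes, meaning kept cells with a UMI of the pan-leukocyte gene Ptprc or in the gate, the order changed. Neutrophils were 0.699%, 4.55%, 0.180%, 1.33% and 2.90% of 3006, 703, 557, 1428 and 2245 leukocytes. KO2 became the highest library. The KO mean of 1.81 ± 2.39% (SD, n = 3) and the WT mean of 2.11 ± 1.11% (SD, n = 2) differed by -0.303 percentage points (exact permutation p = 0.9, adjusted 0.9). The sign of this difference turned when KO1, KO3 or WT2 was left out, to 0.253, 0.512 and 0.479 points. For each 100 macrophage-gate cells the libraries held 4.53, 50.0, 0.270, 4.29 and 33.2 neutrophils, highest in the libraries numbered 2 of either label.

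**Figure D2:**
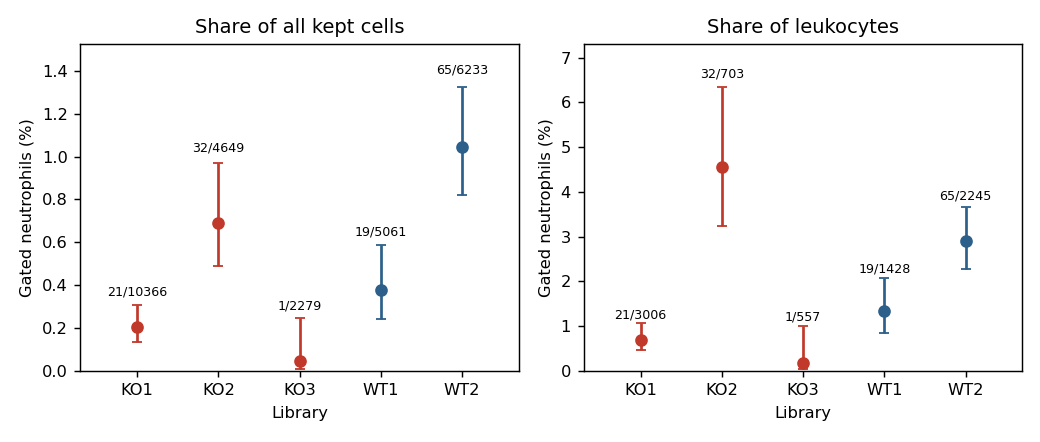
Gated neutrophils as a percentage of kept cells (left) and of leukocytes (right) in each library, with 95% Wilson intervals and the counts above; red is KO and blue is WT. KO2 and WT2 were the highest libraries of their genotype on both scales, and KO3, with 1 cell, the lowest.

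Granule genes came next. Of the 7 primary granule genes, Mpo, Elane, Ctsg and Ms4a3 had 0 UMIs among 387341 neutrophil UMIs, which allows up to 7.75 CPM. They were at 0 to 1.97 CPM in monocyte-gate cells as well. Ctsc, the protease that activates granule serine proteases, was at 25.8 CPM in neutrophils and 472 CPM in monocyte-gate cells. Prtn3 had 1 UMI, and of the cycling genes Mki67 had 1 and Top2a 2. All 15 secondary and tertiary granule genes had a UMI. Slpi, an inhibitor of neutrophil elastase, stood at 2596, 2427, 1693, 3806 and 2778 CPM and was found in 127 of 138 cells. Hp, which makes haptoglobin, stood at 1902, 723, 564, 1297 and 921 CPM in 111 cells. Lcn2, which binds bacterial siderophores, stood at 2435, 779, 0, 850.5 and 761 CPM in 58 cells. Slpi was thus in most cells of each genotype, and Lcn2 in fewer.

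The strictly secondary granule genes rested on few cells. In KO1, 1 member held all 190 Camp UMIs, all 320 Ngp UMIs, all 20 Chil3 UMIs and 135 of 136 Ltf UMIs of its library. Camp makes cathelicidin, Ngp a cystatin-like granule protein, Chil3 a chitinase-like protein and Ltf lactoferrin. The same cell held 66 of 151 Lcn2 and 46 of 68 Mmp8 UMIs, Mmp8 being the neutrophil collagenase. It was the deepest of the 21 KO1 members, with 7577 UMIs and 1556 genes, and 2398 of every 10000 UMIs were S100a8 or S100a9. It had 0 Il1b UMIs of 443 in its library, 1 of 141 Csf3r UMIs and 0 UMIs of Mpo, Elane, Mki67 and Cebpe. This cell was singled out after its values were seen. Without it, KO1 fell to 0 Camp, 0 Ngp and 1 Ltf UMIs, and Lcn2 stood at 1561 CPM and Mmp8 at 404 CPM. S100a8 stayed at 30929 CPM and Retnlg at 14987 CPM, still the highest of the 4 larger libraries. Both also drew on other rich cells, and Retnlg had a UMI in 14 of 21 KO1 cells. The KO1 cells of 4625 and 6318 UMIs held 679 and 510 Retnlg plus Mmp9 UMIs per 10000, and 2368 and 1915 of S100a8 plus S100a9. The WT1 cell of 2988 UMIs held 442 and 1677, and the WT2 cell of 3895 UMIs 616 and 2295.

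**Figure D3:**
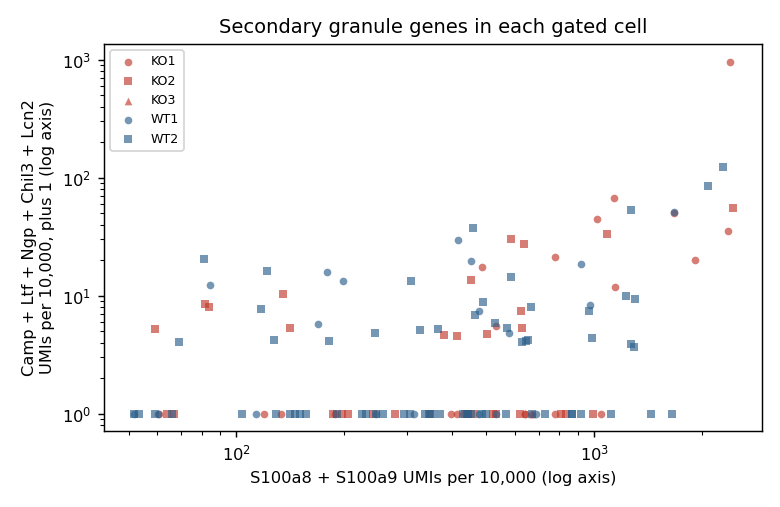
UMIs per 10000 of Camp, Ltf, Ngp, Chil3 and Lcn2 together, plus 1, against S100a8 plus S100a9 UMIs per 10000, for each gated cell (both axes log); red is KO, blue is WT, and shapes are replicate numbers. The KO1 cell with 190 Camp UMIs lies alone at the top right, and cells with none of the 5 granule genes lie on the bottom line.

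The states of single neutrophils were compared after each cell was thinned to 1000 UMIs, which left out 2 cells and kept 136. At least 2 of Camp, Ltf, Ngp, Chil3 and Lcn2 were found in 6 cells (4.41%), against 2 of 242 monocyte-gate cells (0.826%). Unthinned, 11 of 138 neutrophils (7.97%) had them. By library the thinned share was 5.0%, 6.25%, 0%, 5.26% and 3.13%. The genotypes overlapped, with a difference of -0.444 points (exact permutation p = 0.9, adjusted over 4 state shares 0.9). KO3's 0% is 1 cell here and in the next shares.

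Il1b, the gene of the inflammatory cytokine IL-1β, was found in 109 of 136 thinned neutrophils (80.1%; 88.4% unthinned), against 29.8% of monocyte-gate, 8.72% of macrophage-gate and 0.483% of fibroblast-gate cells at the same depth. By library it was found in 95.0%, 75.0%, 100%, 94.7% and 73.4% of cells. The libraries numbered 2 were lower than those numbered 1 under either label, and the KO minus WT difference of 5.91 points did not pass (exact permutation p = 0.5, adjusted 0.9). Cxcr4, the receptor through which aged neutrophils return to the marrow, was found in 63 cells (46.3%; 78.3% unthinned), against 16.9% of monocyte-gate, 9.90% of macrophage-gate and 0.569% of fibroblast-gate cells. Its library values were 45.0%, 43.8%, 100%, 42.1% and 48.4%. Apart from the single KO3 cell they lay between 42.1% and 48.4%, and the difference of 17.6 points (exact permutation p = 0.8, adjusted 0.9) became -0.896 without KO3.

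At least 2 of 10 interferon response genes (Isg15, Ifit1, Ifit2, Ifit3, Ifit3b, Rsad2, Oasl1, Irf7, Ifitm1 and Ifitm3) were found in 86 thinned neutrophils (63.2%; 86.2% unthinned). The share was 26.9% in monocyte-gate, 48.2% in macrophage-gate and 24.2% in fibroblast-gate cells. Of these genes Ifitm1 was at 1874 CPM over all neutrophils, against 79.1 CPM in monocyte-gate and 9.06 CPM in macrophage-gate cells. Rsad2 went the other way against macrophage-gate cells, at 64.5, 135, 0, 149 and 697 CPM in neutrophils. In macrophage-gate cells it stood at 1157, 943, 449, 1041 and 1299 CPM. In monocyte-gate cells it stood at 54.9, 415, 363, 60.9 and 31.6 CPM, below neutrophils in KO1, WT1 and WT2 and above them in KO2 and KO3. Which genes set the shares was not tested. By library the neutrophil share was 50.0%, 71.9%, 0%, 52.6% and 67.2%, again higher in KO2 and WT2 than in KO1 and WT1. The KO minus WT difference of -19.3 points (exact permutation p = 0.8, adjusted 0.9) turned to 1.03 points without KO3 and to 14.0 points without thinning.

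Cytokine and chemokine RNAs were led by Cxcl2 and Il1b. Cxcl2, a ligand of CXCR2, stood at 3547, 7722, 67720, 5592 and 7433 CPM, and Il1b at 7142, 3173, 12980, 7633 and 4741 CPM. KO1 and WT1 had more Il1b and less Cxcl2 than KO2 and WT2. Over all libraries Il1b was at 5156 CPM in neutrophils against 1141 in monocyte-gate and 344 in macrophage-gate cells. Cxcl2, at 6929 CPM, was near the 6773 CPM of macrophage-gate cells and above the 2226 CPM of monocyte-gate cells. Tnf was at 25.8 CPM in neutrophils and 431 CPM in macrophage-gate cells, and Il1a, the gene of IL-1α, had 0 UMIs. Ccl4, a chemokine, was uneven, at 96.7, 1716, 12980, 276 and 777 CPM, and was found in 37 of 138 cells.

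Receptor genes were found in very different shares of the cells. Il1r2, a decoy receptor for IL-1, stood at 2757, 1253, 564, 2637 and 1522 CPM, in 128 of 138 cells, and at 74.2 CPM in monocyte-gate cells. Ccr1, a chemokine receptor, stood at 1322, 1185, 564, 1871 and 1208 CPM in 127 cells. Clec4d, a C-type lectin that senses microbial lipids, stood at 2112, 3534, 5643, 1510 and 2331 CPM in 134 cells, and at 653 CPM in monocyte-gate cells. Fpr1, a receptor for formylated bacterial peptides, had a UMI in 25 cells and 95.5 CPM over all libraries. Fewer still held C3ar1, a complement receptor (2 cells), and Cmklr1, a chemerin receptor, had 0 UMIs. Of the adhesion genes Cd44, which binds hyaluronan, was found in 131 cells at 1632 CPM, against 1539 CPM in monocyte-gate cells, and Icam1, an integrin ligand, in 12 cells at 41.3 CPM.

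Of the NADPH oxidase, which makes superoxide, the membrane subunit Cyba stood at 1258, 937, 564, 1084 and 921 CPM. It was found in 117 of 138 cells, at 997 CPM over all libraries, against 1208 CPM in monocyte-gate and 575 CPM in macrophage-gate cells. The catalytic subunit gene Cybb was found in 16 of 138 cells, at 199 CPM over all libraries, against 1241 CPM in monocyte-gate and 700 CPM in macrophage-gate cells. Cyba was thus between the classes, and Cybb below both. Among lineage regulators Cebpb, a C/EBP factor of emergency granulopoiesis, stood at 4385, 5092, 6208, 4167 and 4454 CPM in 137 cells, while Cebpa and Gfi1, factors of earlier granulocyte stages, had 0 UMIs. Mcl1, a survival factor on which neutrophils depend, stood at 2757, 1784, 6208, 2403 and 1479 CPM in 133 cells. It was higher in KO1 and WT1 than in KO2 and WT2.

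Interferon-induced genes did not share 1 order between the myeloid classes. Ifitm1, a membrane restriction factor, stood at 1628, 1976, 564, 1701 and 1963 CPM, against 79.1 CPM in monocyte-gate and 9.06 CPM in macrophage-gate cells. Its relative Ifitm3 was at 1100 CPM over all neutrophils, against 3348 CPM in monocyte-gate and 1228 CPM in macrophage-gate cells. Isg15, a ubiquitin-like modifier, stood at 564, 1197, 0, 298 and 1085 CPM, and H2-D1, a class I heavy chain, at 2692, 4832, 2257, 3381 and 4374 CPM. Both were higher in KO2 and WT2 than in KO1 and WT1. The 8 class I genes summed to 9312 CPM in neutrophils, close to the 8733 CPM of monocyte-gate and 8705 CPM of macrophage-gate cells; H2-K1, another heavy chain, was lower in neutrophils (1539 CPM against 1835 and 2446 CPM). Heat shock RNAs were lower: the 10 genes of the list summed to 1748 CPM in neutrophils against 4999 CPM in monocyte-gate and 10733 CPM in macrophage-gate cells.

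Of genes described in tissue neutrophils, Hmox1, which breaks down haem, stood at 16.1, 1344, 0, 149 and 660 CPM, and Ctsd, a lysosomal protease, at 1096, 3364, 564, 1425 and 3512 CPM. KO2 and WT2 exceeded KO1 and WT1 for both. Siglecf, reported on some tissue neutrophils and on eosinophils, had 3 UMIs in all. Cd274, which encodes PD-L1, was found in 42 of 138 cells. What the shared replicate numbers stand for is not stated in the labels. The genes named for this order, here and above, are examples. The share of all tested genes that set KO2 and WT2 apart from KO1 and WT1 was not counted.

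**Figure D4:**
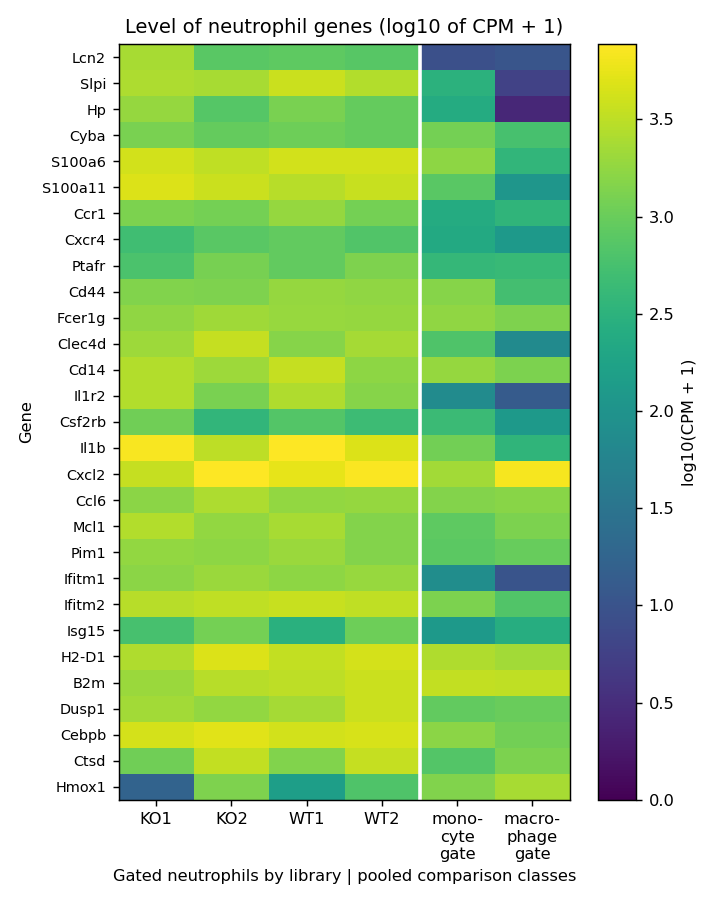
Levels, as log10 of CPM plus 1, of 29 genes of the neutrophil lists in the summed neutrophils of the 4 larger libraries and, right of the white line, in the pooled monocyte-gate and macrophage-gate cells. Il1r2 and Ifitm1 are bright in all 4 neutrophil columns and dark at the right, and Hmox1 runs from 16.1 CPM in KO1 to 1344 CPM in KO2.

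To ask whether the labels differed within neutrophils, UMIs were summed per library and fitted over all genes. Only KO1, KO2 and WT2 held 20 members, so the minimum of 10 was used, which brought in WT1 with 19 and left out KO3. No gene passed. Of 1206 genes tested with edgeR's quasi-likelihood test, 0 (0%) passed a Benjamini-Hochberg adjusted p of 0.05 and 17 (1.41%) had an unadjusted p below 0.05. DESeq2 also called 0, with 7 below an unadjusted 0.05. On a scale with edgeR's TMM factors, which the CPM values given here leave out, the library ranges of the labels did not overlap for 284 genes (23.5%). Of these, 144 (11.9%) were higher and 140 (11.6%) lower in KO. The median log2 fold change over all genes was 0.022. In simulated data on these genes the test recovered 65.8% of 4-fold and 97.4% of 8-fold changes, and 23 unchanged genes were called over 5 runs. Every simulated gene had the same dispersion, 0.119. The real genes differed in spread, with an SE of 2.04 for Hmox1 beside a median of 0.58, so the recovery does not carry over to genes of wide spread. The p-values measure the spread between 4 libraries, 1 per mouse.

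The gene with the smallest p was Wfdc17, a whey acidic protein family member known from activated macrophages. It had 135 and 116 UMIs in KO1 and KO2 and 11 and 125 in WT1 and WT2, or 2177, 1310, 234 and 665 CPM. The KO libraries lay above the WT ones, by 1.99 ± 0.48 (SE) on the log2 scale, which did not pass (edgeR adjusted p = 0.329). The value was 3.10 without WT2. In macrophage-gate cells Wfdc17 stood at 702, 590.2, 512, 542 and 498 CPM, and in monocyte-gate cells at 501, 459.8, 512, 559 and 459.5 CPM, a narrower spread than in neutrophils. The other genes next in order in that direction did not pass either (edgeR adjusted p = 0.9998 each). Cxcl3, a CXCR2 ligand, stood at 500, 519, 298 and 112 CPM (log2 1.60 ± 0.56 SE), and 0.97 without WT2. Wfdc21, of the Wfdc17 family, stood at 1209, 587, 213 and 527 CPM (log2 1.31 ± 0.49 SE), which became 0.58 without KO1, 0.85 without WT1 and 2.27 without WT2. Ifitm6 stood at 580, 124, 149 and 101 CPM (log2 1.67 ± 0.68 SE). Its log2 value was 0.36 without the single KO1 cell that held the Camp UMIs and 0.13 without KO1. The gate gene Retnlg had a log2 difference of 1.10 and overlapping ranges, and 0.26 without KO1.

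In the other direction Rsad2, the antiviral enzyme viperin, stood at 64.5, 135, 149 and 697 CPM (log2 -2.04 ± 0.67 SE). WT2 alone was high. Fos, an immediate-early AP-1 subunit, stood at 290.2, 373, 999 and 724 CPM (log2 -1.23 ± 0.46 SE). Nfkbia, the NF-κB inhibitor IκBα, stood at 419, 474, 680 and 1187 CPM (log2 -0.97 ± 0.44 SE), but the KO3 cell held 8465 CPM, and with that cell in the fit the value turned to 0.18. Myo1f, a class I myosin of leukocytes, stood at 64.5, 79.0, 298 and 202 CPM (log2 -1.60 ± 0.67 SE), and Ankrd12, an ankyrin-repeat nuclear protein, at 113, 113, 234 and 463 CPM (log2 -1.57 ± 0.61 SE). Without WT2 the values of Ankrd12 and Nfkbia were -0.85 and -0.41. None of these 5 passed (edgeR adjusted p = 0.9998 each).

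**Figure D5:**
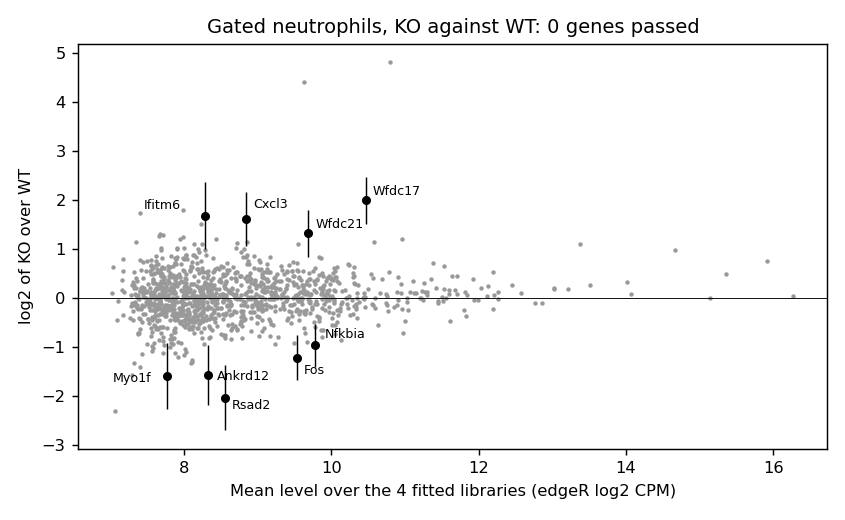
The log2 ratio of KO over WT against the mean level (edgeR log2 CPM) for 1206 genes in the neutrophils of KO1, KO2, WT1 and WT2; black points are the named genes with SE bars. Wfdc17, at 1.99, had the smallest p, and the pair of grey points above 4 are Ngp (4.80) and Ltf (4.39), whose UMIs come mostly from 1 KO1 cell.

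By list, 0 members passed in any of the 18. The 9 tested secondary and tertiary granule genes had a median log2 of 1.09, with 7 above 0 and 0 outside the other label's range. Of these, Ngp (4.80) and Ltf (4.39) rest mostly on the KO1 cell with Camp. That cell also held 46 of 68 Mmp8, 66 of 151 Lcn2 and 72 of 217 Lyz2 UMIs of KO1. The list median without it is not given here. The 13 tested interferon genes had a median of -0.31, with 4 above 0. Of the 13, 6 had KO libraries below WT ones, beside 11.6% of all genes: Rsad2, Irf1, Ifitm2, Gbp2, Slfn1 and Slfn4. The smallest of these differences was that of Ifitm2, at -0.04 on the log2 scale. The 4 tested heat shock genes (Hspa8, Hsp90aa1, Hsp90ab1 and Dnaja1) had a median of 0.56 and were all above 0, and 3 had KO libraries above WT ones, beside 11.9% of all genes. All 5 tested chemoattractant receptors were slightly below 0, with a median of -0.21 and overlapping ranges. The other lists with 4 or more tested genes had medians from -0.41 to 0.25, and no primary granule gene was tested.

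Leaving out a library changed the count of genes that passed. Without KO2, 17 passed in edgeR, among them Camp, Ngp, Ltf, Chil3, Mmp8 and Lcn2, all held in part or whole by the single KO1 cell, as well as Wfdc17 (log2 2.31), Wfdc21 (1.74), Ifitm6 (2.47), Rsad2 (-2.69) and Hmox1 (-4.55). Without KO1, 3 passed, without WT1 1, and without WT2 0. With the Camp cell left out of KO1 and all 4 libraries in the fit, 0 passed in edgeR (13 at an unadjusted p below 0.05). With the 12 members that carried luminal or T and NK UMIs left out, 0 passed (15 at an unadjusted p below 0.05).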

How the data were processed

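Single-cell libraries of whole mammary gland were made with the 10x Genomics 3′ kit, per the labels' protocols. The deposited values are raw UMI counts per gene and barcode, which the authors made with Cell Ranger 6.0.2 (6.1.2 for KO3), per the file headers, on mm10, per the submitters' processing notes. The sources used here do not give the annotation release or the cell-calling rule. Introns, strand and ambient RNA could change these counts and were not adjusted.

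Cells were gated as described above. The members and gene lists were chosen with earlier results of these data known. No doublet caller was run; no member exceeded 3 times its library's median UMIs. The fit used edgeR 4.0.16 (filterByExpr, TMM, robust quasi-likelihood) in R 4.3.3, with DESeq2 1.42.0 as alternative. It was tested on simulated data. Each SE is the fold change divided by the square root of the F statistic. CPM values are sums over members per 1000000 UMIs, without TMM factors. Library ranges of the fitted genes were compared with TMM factors, so some differ from the order of the CPM values. Two-sided exact permutation tests over libraries compared shares. A count of 0 allows up to 3 UMIs; floors and Wilson intervals (95%) cover counting error only. Positions are from GENCODE M21.

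Named genes were the gate genes, the 5 tested members of each list with the highest mean CPM, the 5 genes per direction with the smallest p, the 15 leading genes and 8 per direction against each myeloid class. Some of these are not reported here, and other genes were named after their values were seen. Alternatives varied the cell filters, gate level, gate genes, thinning, normalization, low-count filter, replicate block and libraries used. Cells with the Camp UMIs or with luminal or T and NK UMIs, and KO3 in the fit, were alternatives added after seeing the data.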

Additional observations from a re-analysis of the deposited data

How the results depend on the processing

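The share of kept cells stayed lower in KO under all 14 alternatives, from -0.731 to -0.0638 points when 1 library was left out and from -0.442 to -0.278 otherwise. The share of leukocytes ranged from -1.67 to 0.512 points when 1 library was left out, and turned to 0.253 without KO1, 0.512 without KO3 and 0.479 without WT2. The secondary granule share turned to 0.801 points at a gate level of 20, 0.163 at 100 and 1.09 after thinning to 500 UMIs, and ranged from -1.69 to 1.43 without 1 library (0.625 without WT1). The Il1b share ranged from -4.74 (without WT2) to 16.6 points without 1 library. The Cxcr4 share turned to -14.7 points after thinning to 500 UMIs and ranged from -0.896 (without KO3) to 27.2 without 1 library. The interferon share turned to 14.0 points without thinning and ranged from -34.9 to 1.03 (without KO3) without 1 library. The cause of these turns was not tested. State shares in KO3 rest on 1 cell, and no share could reach a p below 0.1.

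The count of genes past the threshold in edgeR was 0 in the main analysis and 0 to 17 without 1 library, where a lone library is assumed to vary like the others. It was 3 with no low-count filter, among 9966 genes tested, and 0 under the other alternatives, the replicate block apart. Gated cells were summed from 10 members per library; the minimum of 20 left WT with 1 library and was not run. Limits of 10% or 25% mitochondrial UMIs, and leaving out cells over 3 times the median, kept the same number of members, 138. Of 183 values of the 10 named genes under alternatives, 176 kept direction and side, 6 passed and 1 turned (Nfkbia, 0.18 with KO3 included).

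With the replicate number as a replicate block, 2 genes passed in edgeR, Ltf (log2 3.63) and Wfdc17 (log2 1.997, edgeR adjusted p = 0.000207), and 47 had an unadjusted p below 0.05. Deviations of same-numbered libraries from their group means correlated at 0.361, over 2 pairs, which do not establish a pairing; the labels give the numbers no meaning. Depth limits what could be seen: 1206 genes had enough UMIs to test, and the median SE was 0.58 on the log2 scale.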

Other observations

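Survival, hypoxia and MHC class I genes were measured in neutrophils as well. Pim1, a kinase induced by growth factor signals, stood at 1790, 1660, 5079, 2020 and 1474 CPM (KO1 first, then KO2, KO3, WT1, WT2) and was found in 126 of 138 cells, while Bcl2, another survival factor, had 2 UMIs in all. Slc2a1, a glucose transporter, was at 129 CPM in neutrophils against 41.3 in monocyte-gate and 15.8 in macrophage-gate cells. B2m, the light chain of class I molecules, was at 3191 CPM in neutrophils, 3346 in monocyte-gate and 3254 in macrophage-gate cells. Lyz2, which makes lysozyme, was at 1188 CPM in neutrophils and 13241 CPM in monocyte-gate cells. Arg1, an arginine-degrading enzyme, had 1 UMI, and Spp1, which makes osteopontin, was found in 8 cells.

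Across the 138 cells, S100a8 plus S100a9 had a Spearman correlation of 0.40 with Retnlg plus Mmp9 (0.41 to 0.47 within the 4 larger libraries) and of -0.03 with Il1b (-0.16 to 0.25). The points share libraries and depth, and the first pair of measures entered the gate. Library profiles of the summed neutrophils correlated from 0.750 (KO1 and KO2) to 0.906 (KO2 and WT2) across genes, which are not independent replicates.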
